A study of Mus musculus with 6 samples.

Results

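The 7 genes described here, Pax2, Pax8, Lhx1, Gata3, Cdh16, Ret and Gfra1, were chosen because they mark the epithelium of the mesonephros and of the Wolffian duct, tissues that border the fetal ovary. They were followed across 6 ovary pools by summing, for each gene name of the deposited annotation, the read counts of all its transcripts. The 7 genes, with 35 transcripts, stood among 35974 gene names and 114412 transcripts. The rule that chose them uses no measured value, but the choice was made with earlier results of these data known. RNA was sequenced with a strand-specific protocol from ovaries of E15.5 C57BL/6J fetuses. Their mothers had received panobinostat (PB), an inhibitor of histone deacetylases, by oral gavage at 5 mg/kg from E6.5 to E15.5, or the vehicle, DMSO and water, in the control group. The methods place the doses on alternate days and the sample annotation gives them per day. Each group had 3 pools, called control 1 to 3 and PB 1 to 3, and the sources give 4, 6 to 8 or at least 8 ovaries per pool. Neither the litters behind a pool nor a sequencing batch are named, so a p-value measures the spread between these pools.

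The mesonephros is the transient embryonic kidney that lies along the gonad, and the gonad has to be dissected away from it. Its collecting duct, the Wolffian duct, also sends out the ureteric bud of the permanent kidney, forms the epididymis and vas deferens in males and regresses in females. Pax2, Pax8, Lhx1 and Gata3 encode transcription factors that specify the duct epithelium, Cdh16 encodes a cadherin of kidney tubule epithelium, and Ret and Gfra1 encode the receptor and co-receptor for GDNF that guide duct growth. None of these genes belongs to the duct alone, since Ret and Gata3, for example, also act in sympathetic neurons.

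The total counts lay between 97165644 and 125985399 per pool, and a level of 3 counts, taken as the floor of detection, corresponded to 0.0238 to 0.0309 CPM (counts normalised to library size). Germ cell genes (Ddx4, Dazl, Stra8, Sycp3, Dppa3) summed to between 329 and 645 TPM (counts normalised to transcript length and library size) per pool, and pregranulosa cell genes (Foxl2, Fst, Wnt4, Rspo1, Irx3) to between 363 and 449 TPM, so the defining genes of the labelled tissue were present in every pool. The quasi-likelihood test of edgeR was applied to the sums of 19435 genes, and a gene counts as called where PB and control differed by 2-fold or more with an FDR no higher than 0.05. Between pools of a group, the common biological coefficient of variation, a single value fitted over all tested genes, was 20.9%.

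No change between PB-exposed and control ovaries was called in any of the 7 genes, and the pools of both groups overlapped for each of them. All 7 genes passed the filter on low counts. With edgeR, 0 of 7 genes were called, where 0.0154% of all tested genes were called, and 0 of 7 had an unadjusted p-value under 0.05, where 4.46% of all tested genes had one. The 2 groups separated without overlap in 0 of 7 genes and in 10.7% of all tested genes. DESeq2's Wald test also called 0 of 7, against 0.0414% of all genes it tested, and 0 of 7 had an unadjusted p-value under 0.05 with it. The log2 fold change of PB over control was above 0 in 3 genes and below 0 in 4, with a median of -0.018, beside 50.7% above 0 and a median of 0.0020 over all tested genes. The FDR lay between 0.888 and 0.986. The highest pool differed between the genes. It was control 3 in 4 of them and PB 2 in 3, where these pools were highest in 14.7% and 19.6% of all tested genes. Cdh16, Pax2 and Lhx1 were each more than 1.5 times as high in control 3 as in any other pool, which held for 0.952% of all tested genes.

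**Figure D1:**
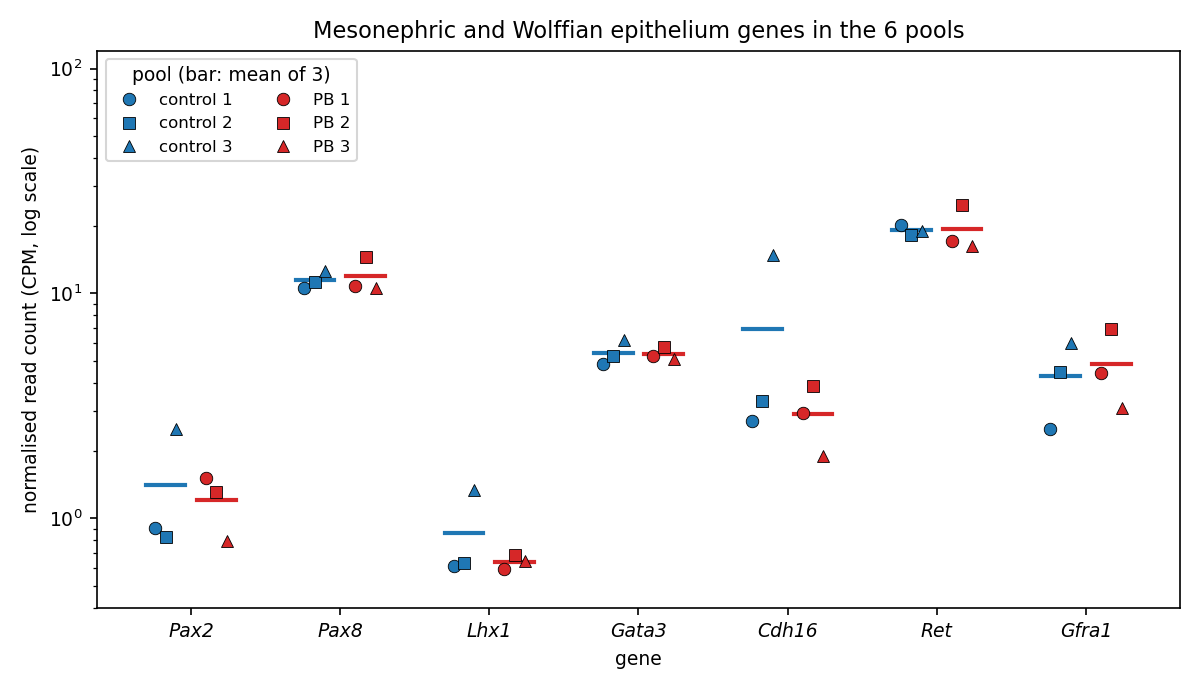
Normalised read count (CPM, log scale) of the 7 genes in each of the 6 pools. Each point is 1 pool, blue for control and red for PB, with the shape giving the pool number, and each bar is the mean of 3 pools. Control 3 lies well above the other 5 pools for Pax2, Lhx1 and Cdh16, whereas Pax8, Gata3 and Ret lie close together in all pools.

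Pax2 (chr19:44745693-44837871 of mm10, plus strand) is a paired box factor of the duct and of the nephron progenitors. It was measured at 0.906, 0.823 and 2.495 CPM in control 1, 2 and 3 and at 1.51, 1.31 and 0.791 CPM in PB 1, 2 and 3. The highest value was thus in control 3, while the other control pools lay among the lowest. The level in control 3, from 235 reads, had an exact 95% Poisson interval of 2.19 to 2.84 CPM, which lay above that of PB 1, the next pool, at 1.28 to 1.77 CPM. Such intervals cover counting error only. They treat the deposited counts, which were derived from coverage, as independent reads, and so may be too narrow. The log2 fold change was -0.22 (SE 0.49, FDR = 0.941, edgeR), and 2 SE on either side reached from -1.20 to 0.75. Without control 3 it was 0.47 (SE 0.32, FDR = 0.947).

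Pax8 (chr2:24420551-24480095, minus strand), the paralogue that acts together with Pax2 in the duct, was measured at 10.6, 11.3 and 12.6 CPM in the control pools and at 10.8, 14.5 and 10.6 CPM in the PB pools. The highest pool, PB 2, exceeded the second, control 3, by a factor of 1.15, and the groups overlapped. Between PB and control the log2 fold change was 0.056 (SE 0.15, FDR = 0.952), and 2 SE on either side reached from -0.24 to 0.35. A 2-fold change in either direction lay outside that interval.

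Lhx1 (chr11:84519379-84525534, minus strand), a LIM homeobox factor needed to extend the duct, was the gene with the fewest reads, no more than 75 in any pool but control 3. Its levels were 0.611, 0.635 and 1.34 CPM in the control pools and 0.595, 0.685 and 0.645 CPM in the PB pools. The 5 pools other than control 3 agreed to within 0.595 to 0.685 CPM. Control 3 lay at 1.95 times the next pool, with a Poisson interval of 1.11 to 1.59 CPM. Its log2 fold change was -0.42 (SE 0.35, FDR = 0.888) and became 0.037 (SE 0.22, FDR = 0.989) without control 3.

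Gata3 (chr2:9857078-9878612, minus strand), a zinc finger factor that keeps the duct cells in their lineage, varied little. It was measured at 4.88, 5.29 and 6.21 CPM in the control pools and at 5.27, 5.80 and 5.10 CPM in the PB pools. Control 3 was the highest pool here too, but by a factor of only 1.07 over PB 2. The log2 fold change was -0.018 (SE 0.12, FDR = 0.986), with 2 SE on either side from -0.27 to 0.23.

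For 3 of these factors, the RefSeq promoter table (GRCm38.p6, the assembly of mm10) held the start of the transcript that carried their counts or, for Pax8, the start shared to within a few bases by the transcripts that carried them. It had no entry for Cdh16 and Ret. The 250 bases before each start are shown, because Lhx1 stood out in control 3 while Pax8 and Gata3 did not. All 3 genes lie on the minus strand, and the sequences are written 5′ to 3′ in the direction of transcription. Capitals mark matches on either strand to CCAAT, the CCAAT box, or GGGCGG, the GC box.
Pax8, before NM_011040.4, chr2:24475600-24475849: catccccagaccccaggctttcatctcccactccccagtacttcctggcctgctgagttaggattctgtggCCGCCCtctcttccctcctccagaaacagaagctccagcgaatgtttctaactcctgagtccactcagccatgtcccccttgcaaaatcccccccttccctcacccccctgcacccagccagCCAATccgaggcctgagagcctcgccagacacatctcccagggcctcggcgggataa
Lhx1, before NM_008498.2, chr11:84525535-84525784: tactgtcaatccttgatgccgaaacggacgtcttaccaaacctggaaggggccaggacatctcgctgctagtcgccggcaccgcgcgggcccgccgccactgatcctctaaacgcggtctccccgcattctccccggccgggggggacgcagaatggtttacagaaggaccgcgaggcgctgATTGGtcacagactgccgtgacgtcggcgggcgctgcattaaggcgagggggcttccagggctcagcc
Gata3, before NM_008091.3, chr2:9878601-9878850: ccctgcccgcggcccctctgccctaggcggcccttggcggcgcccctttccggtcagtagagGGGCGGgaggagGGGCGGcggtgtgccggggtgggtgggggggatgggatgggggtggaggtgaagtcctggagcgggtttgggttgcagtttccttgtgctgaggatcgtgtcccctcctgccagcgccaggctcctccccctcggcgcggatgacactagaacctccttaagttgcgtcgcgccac
The Pax8 sequence held CCAAT with its first base at -57 and GGGCGG on the opposite strand at -179. The Lhx1 sequence held CCAAT on the opposite strand at -68, and the Gata3 sequence held GGGCGG at -188 and -176. CCAAT occurred in 33.85% and GGGCGG in 32.74% of the 32851 promoters of the same length. The letters TATAAA of the TATA box, AGATAA of GATA factors, TAATTA of homeobox factors, and CACGTG of E-boxes, searched on both strands, were in none of these 3 windows, and they occurred in 12.37%, 9.988%, 4.84% and 6.021% of all promoters in that order. None of the printed matches overlapped another. The Lhx1 and Gata3 windows held 26 and 19 CG dinucleotides and the Pax8 window 6, beside a median of 6 and a 90th percentile of 25 over all promoters. A match is a description of the letters only.

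Cdh16 (chr8:104601915-104624396, minus strand), known as kidney-specific cadherin, showed the widest spread of the 7 genes. It was measured at 2.72, 3.34 and 14.8 CPM in the control pools and at 2.93, 3.87 and 1.90 CPM in the PB pools. Control 3 exceeded the next pool, PB 2, by a factor of 3.83 and the median of the other 5 pools by a factor of 5.06, while those 5 pools covered 1.90 to 3.87 CPM. Its 1397 reads gave a Poisson interval of 14.1 to 15.6 CPM. With all 6 pools, the log2 fold change was -1.26 (SE 0.68, FDR = 0.888), past the 2-fold line but not past the FDR threshold, and 2 SE on either side reached from -2.62 to 0.10. Without control 3 it was -0.068 (SE 0.31).

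Ret (chr6:118151748-118197744, minus strand), the tyrosine kinase receptor for GDNF, had the most reads of the 7 genes, between 1701 and 2534 per pool. Its levels were 20.1, 18.2 and 18.9 CPM in the control pools and 17.2, 24.8 and 16.3 CPM in the PB pools. The control pools agreed closely, and the PB pools held both the highest and the lowest value. For Ret, the log2 fold change was 0.025 (SE 0.16, FDR = 0.985), with 2 SE on either side from -0.30 to 0.35, and it was -0.19 without PB 2. Gfra1 (chr19:58235581-58455946, minus strand), the co-receptor that binds GDNF, was measured at 2.48, 4.46 and 6.00 CPM in the control pools and at 4.44, 6.98 and 3.11 CPM in the PB pools. It was highest in PB 2, as Ret was, and lowest in control 1, and each group covered most of the range of the other. The log2 fold change was 0.17 (SE 0.40, FDR = 0.947), with 2 SE on either side from -0.63 to 0.96. It was 0.47 without control 3 and -0.20 without PB 2.

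**Figure D2:**
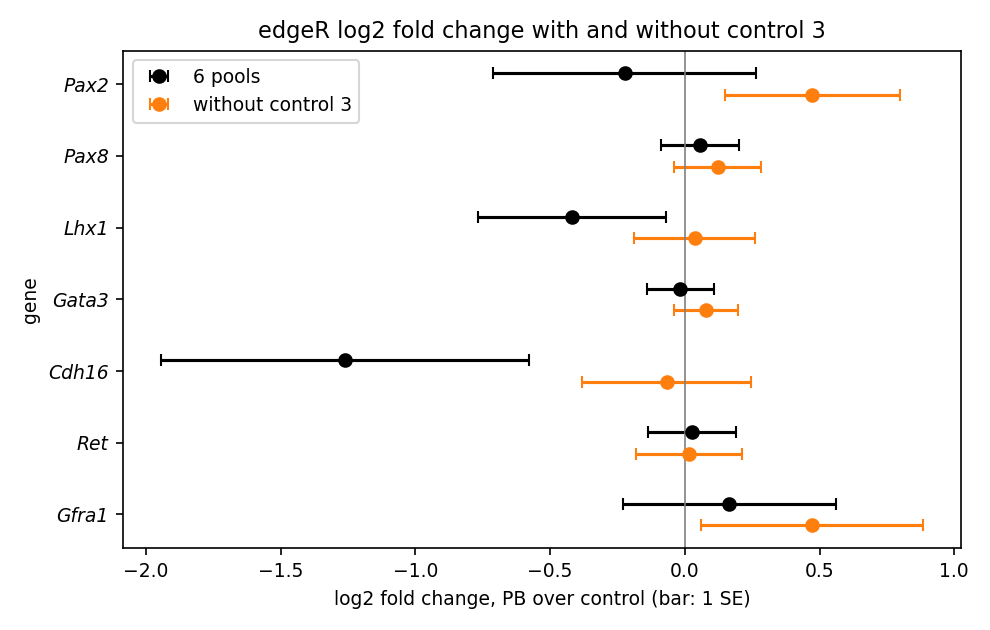
Log2 fold change of PB over control for the 7 genes from edgeR, with all 6 pools (black) and without control 3 (orange), each with a bar of 1 SE. Leaving out control 3 moved Cdh16 from -1.26 to -0.068, Lhx1 from -0.42 to 0.037 and Pax2 from -0.22 to 0.47, and changed Pax8, Gata3 and Ret little.

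Leaving out control 3 changed the split of directions. Without this pool, the log2 fold change was above 0 in 6 genes and below 0 in 1, with a median of 0.079, beside 50.3% above 0 and a median of 0.00089 over all genes then tested. Again 0 of 7 were called, where 0.0151% of all genes were, and 0 of 7 had an unadjusted p-value under 0.05, where 3.72% of all genes had one. With PB 2 left out as well, 0 of 7 were called, where 0.0153% of all genes were.

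Compared per length, on the TPM scale, the 7 genes were all of low to moderate abundance. Pax8 had the highest mean level over the 6 pools at 7.05 ± 0.95 TPM (SD, n = 6), followed by Ret at 4.10 ± 0.65, Gata3 at 2.56 ± 0.28, Cdh16 at 2.55 ± 2.59, Gfra1 at 1.51 ± 0.58, Pax2 at 0.465 ± 0.24 and Lhx1 at 0.415 ± 0.16 TPM. Pax8 stood above Ret, Ret above Gata3, and Gfra1 above Pax2 in all 6 pools. The neighbours Cdh16 and Gfra1, and likewise Pax2 and Lhx1, changed places between pools, the first of each pair being higher in 3 of 6. Gata3 was above Cdh16 in 5 of 6 pools, control 3 being the exception.

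The combined level of the 7 genes showed which pools carried more of this RNA. Their summed level was 15.4, 15.2 and 26.0 TPM in the control pools and 17.8, 21.7 and 15.7 TPM in the PB pools. Control 3 was highest and PB 2 second, and the groups overlapped. The means were 18.9 ± 6.17 TPM in control and 18.4 ± 3.03 TPM in PB (SD, n = 3 pools), a ratio of 0.976, smaller than the spread within either group. Without control 3 the ratio was 1.20. Cdh16 made up 30.0% of the sum in control 3 and between 6.67% and 10.3% in the other pools. It was at 7.81 TPM in control 3 and at 1.94 TPM in PB 2. Without Cdh16, the sum was highest in PB 2 and second in control 3, so the order of these pools depended on this gene. In RNA from whole ovaries, fewer cells of a type and less RNA per cell cannot be told apart.

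The deposited counts are per transcript, and within these genes they were divided among transcripts very unevenly from pool to pool. All 35 transcripts matched a RefSeq intron chain, 8 of them were at 0 in every pool, and 8 had 0 counts in at least 1 pool and more than 100 in another. NM_011040.4 of Pax8 was credited with 787, 95 and 934 reads in control 1, 2 and 3 and with 1, 1305 and 836 in PB 1, 2 and 3, while XM_006497778.3 of the same gene received 114, 1071 and 86 and then 482, 1 and 220. One transcript was low where the other was high, and the gene sum stayed between 1041 and 1486 counts. XM_006497781.1 and XM_006497780.2 of Pax8 also held over 10% of the gene in a pool, with 68 to 320 and 0 to 265 counts.

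Cdh16 showed the same pattern within the gene and still stood apart in control 3. XM_006530629.1 was credited with 0, 265 and 952 reads in control and with 0, 0 and 148 in PB. NM_007663.3 received 267, 124 and 216 reads in control, against 195, 396 and 66 in PB. NM_001252627.1 had 229 counts in control 3, 96 in PB 1, 7 in PB 3 and 0 in the other pools. The excess of Cdh16 in control 3 was assigned to the first and the last of these transcripts, and NM_007663.3 was not at its highest there. Because the division was this uneven between pools, the excess is read from the gene sum and placed in no transcript.

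For Ret, NM_001080780.1 carried between 1354 and 2120 counts, and NM_009050.2 received 515, 0 and 200 reads in control, against 347, 497 and 349 in PB. For Gfra1, XM_006526685.3 received 0, 471 and 477 reads in control, against 0, 269 and 283 in PB, and NM_001285457.1 received 0, 40 and 66 and then 433, 373 and 75. The whole Gfra1 count of control 1, 244 reads, was assigned to XM_006526681.1, which had at most 20 counts in any other pool. So the transcript credited with Gfra1 changed even within the control group.

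The remaining genes were simpler. Lhx1 had 1 transcript, NM_008498.2. Gata3 was carried mainly by NM_008091.3, with 351 to 555 counts. XM_006497355.3 of Gata3 had 1 to 143 counts, and XM_006497354.1 had 127 counts in control 1 and at most 2 elsewhere. Pax2 was carried mainly by XM_006526749.3, with 25, 86 and 219 reads in control, against 150, 102 and 88 in PB, and control 3 was highest in this transcript as well. XM_011247161.2 of Pax2 had 46 counts in control 1 and 0 in every other pool, and XM_006526754.3 had 0 to 18.

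**Figure D3:**
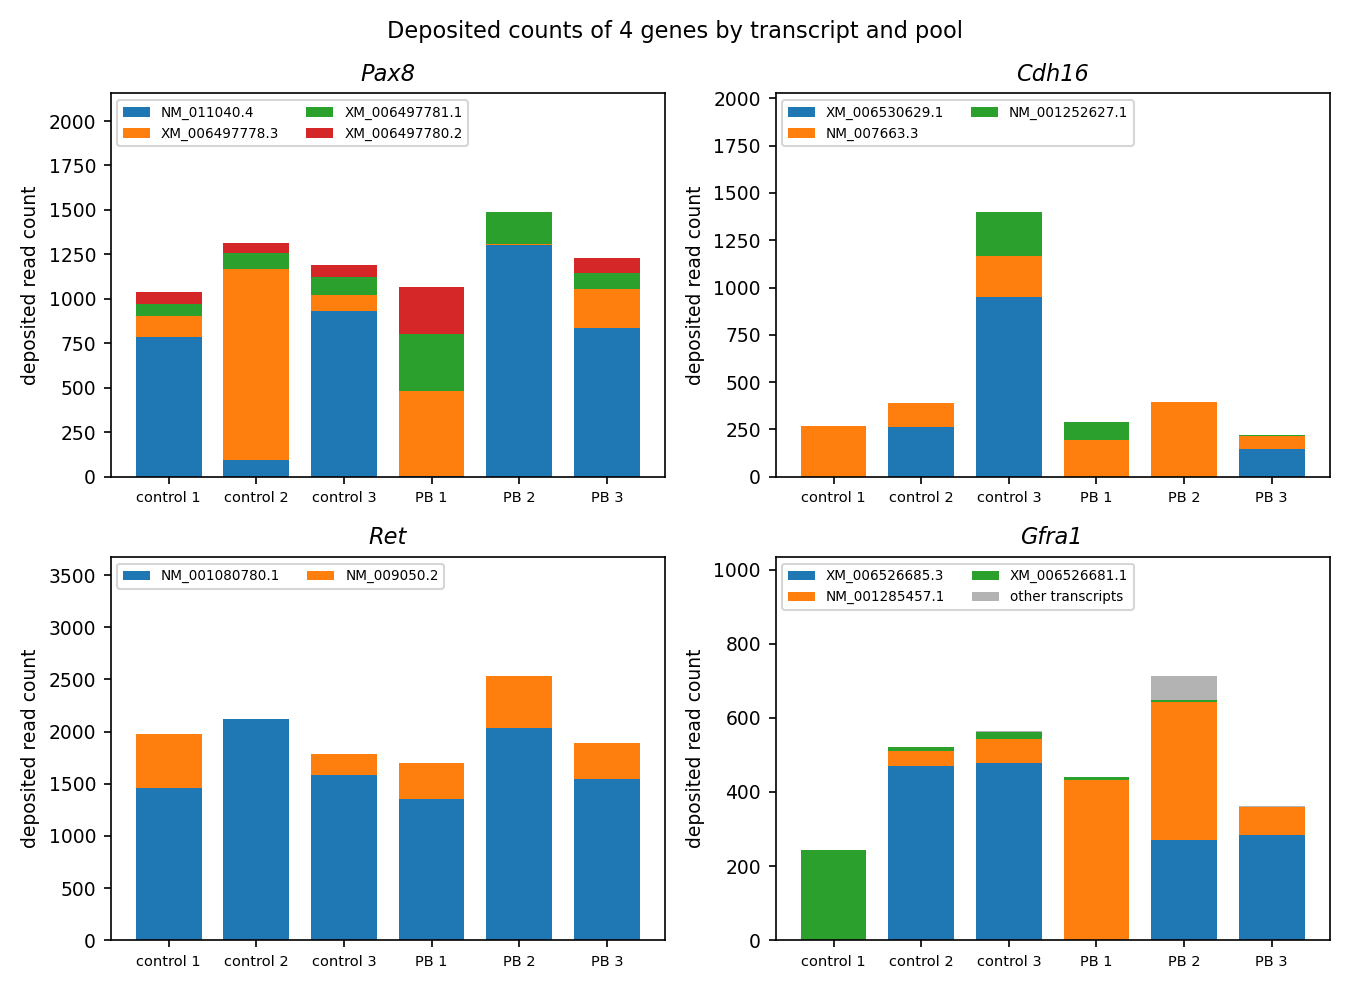
Deposited read counts of Pax8, Cdh16, Ret and Gfra1 in each pool, stacked by transcript; transcripts under 10% of the gene in every pool are drawn together in grey. The height of a bar is the gene sum, which varied far less between pools than its division into colours, except for Cdh16 in control 3 with 1397 counts.

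At the level of transcripts, edgeR tested 14 of the 35, and 0 of 14 were called, where 0.0332% of all 51227 tested transcripts were, while 0 of 14 had an unadjusted p-value under 0.05, where 3.56% of all tested transcripts had one. DESeq2 gave a p-value for 25 of them and called 0, where it called 1.61% of all transcripts. The only one with an unadjusted p-value under 0.05 in DESeq2, where 7.17% of all transcripts had one, was XM_006526681.1 of Gfra1 (FDR = 0.278), the transcript seen in control 1. The common biological coefficient of variation was 98.4% for transcripts, so a transcript typically had to differ far more than a gene sum to be called. In data simulated with 200 transcripts changed 4-fold, edgeR recovered 0 of them, and DESeq2 recovered 59 with 609 false calls. The absence of called transcripts therefore says little about whether they changed.

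Few other genes lie within the spans of these genes, and they carried few reads. Gm13415, on the opposite strand within Pax8, had 18 to 31 counts. 1700039E22Rik, opposite to Pax2, had 3 counts in PB 3 and 0 elsewhere, and LOC108168411, on the same strand within Gfra1, had at most 3. Mir6405 within Pax2 and Gm10007 within Gfra1 were at 0 in every pool.

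Other genes of Wolffian duct epithelium were followed beside the 7. Of 11 listed genes, 10 were tested, with 4 above and 6 below 0 in log2 fold change, 0 called and 0 with an unadjusted p-value under 0.05. Control 3 exceeded every other pool by more than 1.5 times in 4 of them. Among these were Wnt9b, the signal from the duct to the nephron progenitors, Cdh1, the epithelial cadherin, and Wfdc2, a secreted protein of reproductive duct epithelium. Wnt9b was measured at 0.102, 0.163 and 0.754 CPM in the control pools and at 0.151, 0.254 and 0.138 CPM in the PB pools. Control 3 lay far above the rest, by a factor of 2.96 over the next pool, and the other control pools lay among or below the PB pools. In Cdh1 and Wfdc2 the factors were 1.84 and 1.77. Sim1, a duct factor that did not pass the filter, had 24 counts in control 3 and 0 to 11 in the others.

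The most abundant genes of this list did not follow control 3. Emx2 (101 ± 6.77 TPM, SD over 6 pools), a homeobox factor that the gonad itself also needs, and the keratins Krt8 (92.0 ± 9.28 TPM) and Krt19 (78.7 ± 14.3 TPM), which occur in many epithelia including that of the ovary, had log2 fold changes of 0.0075, 0.070 and 0.25, with FDRs of at least 0.888. The median log2 fold change of the list was -0.18, and 0.018 without control 3, beside 0.0020 and 0.00089 over all genes.

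A further list of tight junction and duct surface genes was drawn up after the genes high in control 3 had been seen, so its pattern there is a description. Of its 9 genes, all tested, 8 were more than 1.5 times as high in control 3 as in any other pool. Cldn4, a claudin of collecting duct epithelium, was at 1.96, 2.26 and 7.09 CPM in the control pools and at 1.82, 2.03 and 1.58 CPM in the PB pools. Cldn8, another claudin, was at 0.143, 0.0686 and 2.51 CPM and at 0.0303, 0.215 and 0.120 CPM. Control 3 was the high pool in both, and the other 5 overlapped freely. Upk1b, a uroplakin and the most abundant of the list at 14.96 ± 2.73 TPM (SD over 6 pools), was the exception, with control 3 not raised. Cldn7 was the only one with an unadjusted p-value under 0.05 in edgeR (log2 fold change -0.98, SE 0.37, FDR = 0.888), and 0 of 9 were called. In DESeq2's Wald test, Cldn4, Cldn7, Tmprss2 and Kif12 had one, with FDRs of at least 0.802. The median log2 fold change was -1.06 and became -0.063 without control 3.

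**Figure D4:**
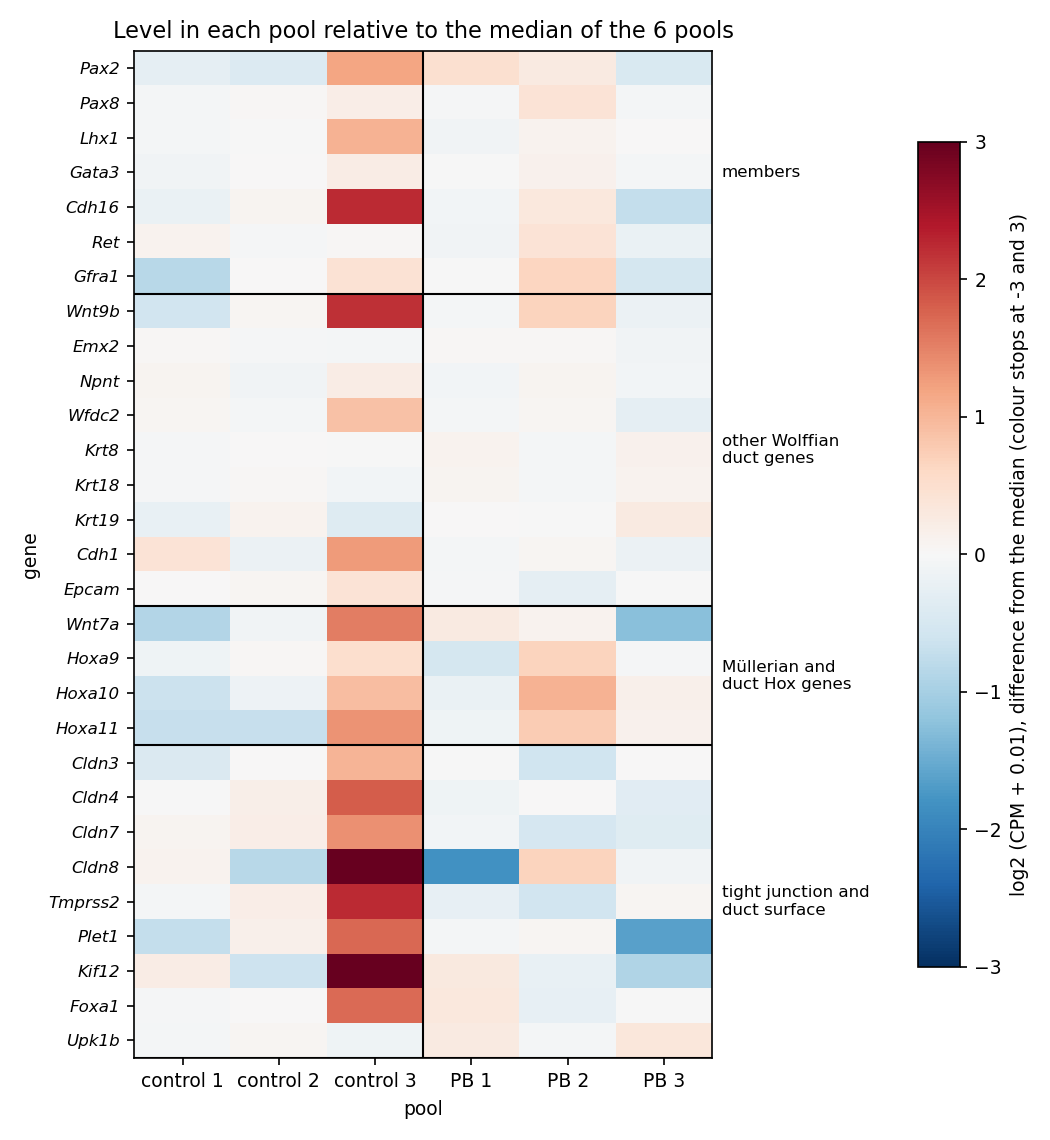
Log2 (CPM + 0.01) of duct genes in each pool, as the difference from the median of the 6 pools (red higher, blue lower, colour stopping at 3 in either direction). The column of control 3 is red for Cdh16, Pax2, Lhx1, Wnt9b, Cdh1 and most tight junction genes, and near 0 for Pax8, Gata3, Ret, Emx2 and the keratins.

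The pathway of Ret and Gfra1 was followed through its ligands, co-receptors and targets. Of 12 listed genes, 11 were tested, 4 above and 7 below 0, with 0 called, 0 with an unadjusted p-value under 0.05 and a median log2 fold change of -0.11. The ligand Gdnf was low at 0.185 TPM on average over the 6 pools, and Nrtn, which encodes the related ligand neurturin, was the most abundant of the list at 28.4 ± 4.59 TPM (SD over 6 pools). Among the targets of the receptor, Spry1, a feedback inhibitor of receptor tyrosine kinases, was at 11.5 ± 1.37 TPM, and Etv5, an ETS transcription factor, at 9.85 ± 0.82 TPM. Control 3 exceeded every other pool by more than 1.5 times in 0 of the 11, so the genes of this pathway, like Ret and Gfra1 themselves, did not show the rise of Cdh16 in that pool.

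Genes of nephron progenitors and nephron segments mark kidney tissue outside the duct. Of 15 listed, 13 were tested, 5 above and 8 below 0, with 0 called and 0 with an unadjusted p-value under 0.05. Umod and Slc12a1, which define the loop of Henle, were at or under the floor in every pool. Nphs1, which encodes nephrin of the glomerular filter, was at 169 ± 7.21 TPM (SD over 6 pools), Cited1, a transcriptional coregulator of nephron progenitors, at 43.1 ± 11.9 TPM, and Osr1, an early factor of intermediate mesoderm, at 11.8 ± 1.36 TPM. Fgf8 was the only one more than 1.5 times as high in control 3 as elsewhere. Six2, the factor that maintains nephron progenitors, was at 1.10, 1.25 and 1.29 CPM in the control pools and at 0.938, 2.90 and 1.16 CPM in the PB pools, and it was more than 1.5 times as high in PB 2 as elsewhere.

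Genes of the Müllerian duct, which forms beside the Wolffian duct, and of reproductive duct identity summed to 3.15, 3.85 and 9.68 TPM in the control pools and to 4.37, 7.88 and 4.75 TPM in the PB pools. As in the sum of the 7 genes, where this order depended on Cdh16, control 3 was highest and PB 2 second. Wnt7a, a signal of Müllerian epithelium (0.756 ± 0.59 TPM, SD over 6 pools), was at 0.723, 1.24 and 3.91 CPM in the control pools and at 1.62, 1.44 and 0.551 CPM in the PB pools, 2.41 times the next pool in control 3. Hoxa10, a patterning gene of the uterus and the most abundant of the list at 2.70 ± 1.23 TPM, was at 2.13, 3.00 and 6.32 CPM and at 2.88, 6.91 and 3.68 CPM, high in both of those pools. Hoxa9, of the oviduct, was at 1.32 ± 0.40 TPM. Of 5 listed genes, 4 were tested, 1 above and 3 below 0, with 0 called and 0 with an unadjusted p-value under 0.05. The median log2 fold change was -0.042, and 0.54 without control 3. Hoxa13, not tested in edgeR, had 46 counts in control 3 and 0 to 9 in the others. In DESeq2's Wald test it had an unadjusted p-value of 0.0055 (FDR = 0.700).

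Relatives from the same gene families included abundant factors of the gonad itself, namely Gata4 (137 ± 11.2 TPM, SD over 6 pools), Gata6 (65.8 ± 5.81 TPM) and Lhx9 (45.3 ± 4.42 TPM). Of 12 listed relatives, 10 were tested, 5 above and 5 below 0, with 0 called. Pax5, a factor of B cells and of the midbrain, was the only one with an unadjusted p-value under 0.05 in edgeR, at 0.265, 0.189 and 0.212 CPM in the control pools and 0.534, 0.274 and 0.387 CPM in the PB pools (log2 fold change 0.84, SE 0.35, FDR = 0.888). Every PB pool lay above every control pool, at levels of 20 to 53 reads. In DESeq2's Wald test, Gata2 and not Pax5 had an unadjusted p-value under 0.05 (log2 fold change -0.45, FDR = 0.942).

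Some of the pools in which these genes were high or low also differed in genes of other tissues, and the part of that in the values above was not tested. Skeletal muscle genes, listed after their values had been seen, summed to 33.0, 104 and 59.2 TPM in the control pools and to 32.6, 359 and 69.4 TPM in the PB pools. PB 2, the highest pool for Ret, Gfra1 and Pax8, was highest for all 10 of them, by more than 1.5 times each, and Myh3, the embryonic myosin, reached 209 CPM there against 4.36 to 43.2 CPM elsewhere. Liver genes, also listed after the fact, summed to 720, 188 and 57.8 TPM in the control pools and to 202, 157 and 264 TPM in the PB pools. Control 3 was the lowest pool and control 1 the highest, and the albumin gene Alb reached 472 CPM in control 1, against 35.1 CPM in control 3. The 10 muscle genes were all above 0 and the 7 liver genes all below 0 in log2 fold change, with 0 of either list called and 0 with an unadjusted p-value under 0.05.

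The adrenal gland lies close by and shares some of these genes. Of 4 adrenal cortex genes, 2 were tested, Akr1b7 at 1.62 ± 0.25 and Mc2r at 0.655 ± 0.15 TPM (SD over 6 pools), and their list summed to between 1.92 and 2.89 TPM per pool, with Cyp21a1 at 0.0233 TPM on average. Sympathoadrenal genes summed to 1.96, 2.06 and 2.87 TPM in the control pools and to 1.91, 4.46 and 3.19 TPM in the PB pools, with PB 2 highest. All 7 were tested, 5 above and 2 below 0, with 0 called. Chga, of chromaffin granules, was at 1.24 ± 0.37, Phox2a, a factor of autonomic neurons, at 0.621 ± 0.25, and Sox10, of neural crest and glia, at 0.267 ± 0.18 TPM. Dbh, the enzyme that makes noradrenaline, received 0, 8 and 32 reads in control, against 12, 103 and 60 in PB.

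Lymphoid genes were listed because Gata3 also acts in lymphocytes. Ptprc, the leukocyte common antigen, was at 0.621 ± 0.063 and Cd3e, of the T cell receptor complex, at 0.166 ± 0.11 TPM (SD over 6 pools). Of the 4 genes, 3 lay above and 1 below 0, and 0 were called.

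The ovary's own cells set the background against which these genes were measured. Of 5 germ cell genes, 1 lay above and 4 below 0, and 0 were called. Dppa3, a marker of early germ cells, was at 20.1, 11.9 and 21.6 CPM in the control pools and at 12.2, 12.5 and 12.8 CPM in the PB pools, with an unadjusted p-value under 0.05 (log2 fold change -0.52, SE 0.21, FDR = 0.888). Control 2 lay below the PB pools, so the groups overlapped. Sycp3 (175 ± 61.3 TPM, SD over 6 pools), Dazl (136 ± 30.5 TPM) and Stra8 (99.3 ± 29.1 TPM) were the most abundant germ cell genes. The germ cell sums were 518, 359 and 528 TPM in the control pools and 610, 329 and 645 TPM in the PB pools, lowest in PB 2 and control 2. Of 5 pregranulosa genes, 1 lay above and 4 below 0 and 0 were called, with Fst at 92.1 ± 7.15, Foxl2 at 91.4 ± 8.77 and Wnt4 at 88.4 ± 4.35 TPM. The pregranulosa sum in control 3, 405 TPM, lay within the range of the other pools.

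**Figure D5:**
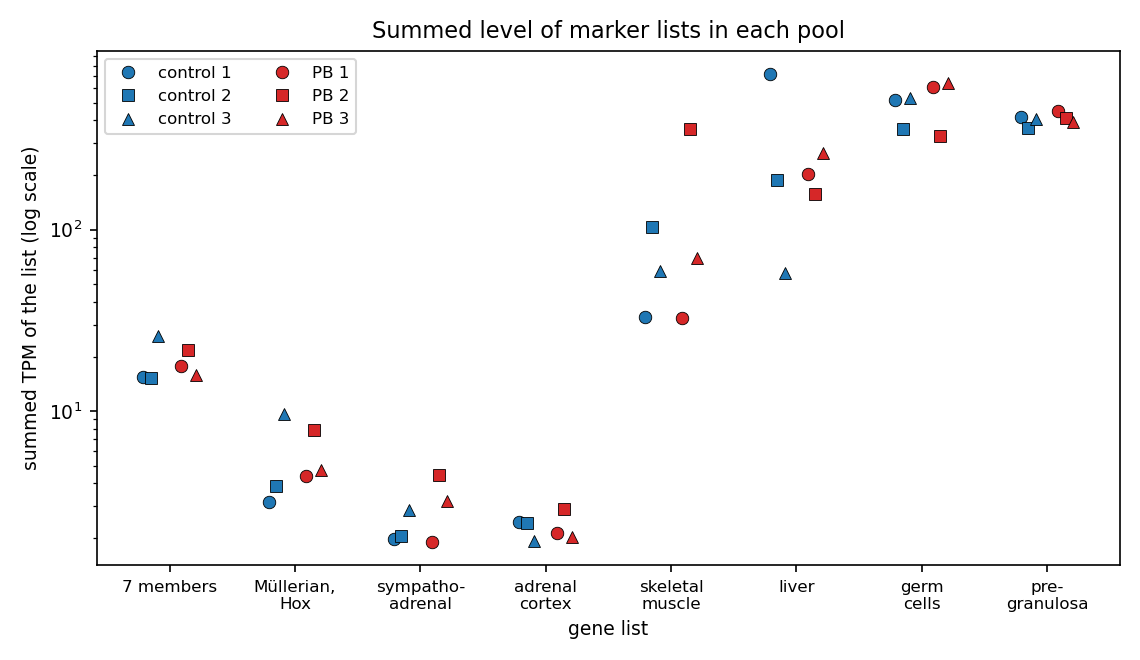
Summed TPM (log scale) of the 7 genes and of 7 marker lists in each pool, blue for control and red for PB, with the shape giving the pool number. Control 3 is highest for the 7 genes (26.0 TPM) and for the Müllerian and Hox genes (9.68 TPM), PB 2 for muscle genes (359 TPM), and control 1 for liver genes (720 TPM), whereas pregranulosa genes lie between 363 and 449 TPM.

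Averaged over the 7 genes, the log2 CPM centred on the mean of the 6 pools was -0.30, -0.14 and 0.67 in control 1, 2 and 3, against -0.079, 0.23 and -0.38 in PB 1, 2 and 3. Among 14782 tested genes with a mean of at least 1 CPM, those with the smallest root mean square difference from this profile over the 6 pools were Gm29975 (0.0908), Adra2a (0.0948), Notum (0.0991), Nlgn3 (0.102) and Sapcd1 (0.105). Adra2a encodes an adrenergic receptor, Notum an extracellular enzyme that inactivates WNT proteins, and Nlgn3 a neuronal adhesion protein. Notum, the most abundant of them, was at 6.34, 7.05 and 11.5 CPM in the control pools and at 6.32, 7.66 and 5.33 CPM in the PB pools (log2 fold change -0.36, SE 0.25, FDR = 0.888). The 7 genes themselves lay between 0.195 for Lhx1 and 0.606 for Cdh16 from their mean profile. The 5 genes were picked as the nearest of 14782, so their distances are no reference for those of the 7. Control 3 was the highest pool in 4 of the 7 genes and PB 2 in 3.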

How the data were processed

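Strand-specific, poly(A)-selected RNA libraries of 6 ovary pools were analysed, 3 control and 3 PB, grouped by their names. The design text calls every library exposed. Per the submitters' processing notes and the methods, reads were aligned with HISAT2 2.1.0 (build mm10) and transcripts were built on RefSeq and merged by StringTie 1.3.5. The authors deposited raw counts for each transcript, obtained by prepDE from its coverage. The read length given to prepDE is not given in the sources used here. The deposited table of the authors' DESeq2 1.30.0 comparison, with fold changes and p-values, was used for gene names and positions only, and its 6 columns of normalized values per pool were not used. Unnamed transcripts, with 3.05% to 4.49% of the counts, were left out of gene sums.

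Gene sums and transcripts were tested in R 4.3.3 with edgeR 4.0.16 (limma 3.58.1, TMM, filterByExpr with a minimum count of 10 and total of 15, quasi-likelihood F-test, Benjamini-Hochberg FDR). SE is the log2 fold change divided by the square root of F. CPM uses TMM library sizes, and TPM divides each transcript by its exon length. DESeq2 1.42.0, other scalings and filters, the replicate number as a block, StringTie loci, known transcripts and leaving out each pool were alternatives. The scripts were tested on simulated data in which 200 features were changed 4-fold. For gene sums, edgeR recovered 170 and DESeq2 183 of them, with 11 and 27 false calls. For transcripts, edgeR recovered 0, and DESeq2 recovered 59 with 609 false calls.

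The 7 genes and the lists were chosen with earlier results of these data known, and the muscle, liver and tight junction lists after the values were seen. Named by rule were the 7 genes, their transcripts with at least 10% of a gene in a pool, overlapping genes, list genes with an unadjusted p-value under 0.05, the 3 most abundant genes of each list, and the 5 genes nearest in profile. Names outside this rule, such as Wnt9b, Six2, Wnt7a and Dbh, were chosen after their values were seen. Values of some list genes are not reported here.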

Additional observations from a re-analysis of the deposited data

How the results depend on the processing

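Under each of the 15 alternatives tried for gene sums, 0 of the 7 genes were called, and under each of the 13 tried for transcripts, 0 of their transcripts were. Known transcripts only and StringTie loci were tried for gene sums alone. The result for transcripts says little, because edgeR recovered 0 of 200 simulated 4-fold changes of transcripts. Of 98 log2 fold changes of the 7 genes under the alternatives, 16 had the opposite sign and 0 were called, the smallest FDR being 0.371. With each pool left out in turn, the log2 fold change ranged from -0.50 to 0.47 for Pax2, from -0.11 to 0.14 for Pax8, from -0.62 to 0.037 for Lhx1, from -0.095 to 0.079 for Gata3, from -1.65 to -0.068 for Cdh16, from -0.19 to 0.14 for Ret and from -0.20 to 0.47 for Gfra1. The sign turned without control 3 for Pax2, Lhx1 and Gata3, without PB 2 for Pax8, Ret and Gfra1, without control 1 for Pax8 and Gfra1, without control 2 for Ret and without PB 3 for Pax2 and Gata3. Without control 3 and PB 2 together, chosen after seeing the data, the log2 fold changes of opposite sign were 0.41 for Pax2, -0.040 for Pax8, 0.026 for Gata3 and -0.20 for Ret. With the replicate number as a block, 0 genes and 0 transcripts of the 7 were called, Ret was at -2.506e-05 and the others kept their sign. Pools with the same number deviated together with correlations of 0.10, 0.18 and -0.0041 across genes, and control 1 correlated more with PB 3 (0.12) than with PB 1, so the number was not taken as a pairing. The ratio of the summed levels, 0.976, ranged from 0.889 to 1.20 with each pool left out, and leaving out Cdh16 gave 1.10. With 3 pools per group and an SE of 0.68, a change of the size seen for Cdh16 could not be separated from the spread. The cause of these dependences was not tested.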

Other observations

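Beyond Cdh16, 11 other genes above 1 CPM were more than 3 times as high in control 3 as in any other pool. They were picked for this pattern, so their values are a description. Tbx18, a T-box factor of urogenital mesenchyme, was at 0.641, 1.26 and 8.86 CPM in the control pools and at 0.857, 1.73 and 1.53 CPM in the PB pools. Foxl1, a forkhead factor of mesenchyme, was at 1.60 CPM in control 3 and at 0.262 to 0.499 CPM elsewhere. Col9a1, a collagen chain best known from cartilage, was at 4.38 CPM in control 3 and at 0.257 to 0.748 CPM elsewhere. Kif12, a kinesin of kidney epithelium, was at 1.62 CPM in control 3 and at 0.0688 to 0.171 CPM elsewhere. The others were Npcd, Cldn4, Cldn8, Tmprss2, Plet1, Vwa2 and Plcxd3.

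By the same measure, 82 genes stood out in PB 2, 12 in control 1, 6 in control 2, 4 in PB 3 and 2 in PB 1. Those of control 1 included Lars2, which encodes the mitochondrial leucyl-tRNA synthetase, at 7709 CPM there and 32.2 to 106 CPM in the other pools. Zfp36l2, an RNA-binding protein gene, also stood out in control 1, reaching 130 CPM. It had 3.66 CPM in PB 3, and the remaining pools, from 0.00858 to 0.0106 CPM, lay below the floor of detection. Whether the values of Lars2 and Zfp36l2 reflect expression or the assignment of reads to gene names was not tested. None of the 7 genes was among the genes that stood out in any pool but control 3.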
